A study of Homo sapiens with 6 samples.

Results

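MYC, MAX and their partners form a network of basic helix-loop-helix leucine zipper proteins that bind DNA in pairs. MYC pairs with MAX and activates genes of ribosome biogenesis, metabolism and the cell cycle, while MXI1, MXD1, MXD3, MXD4 and MNT compete for MAX and recruit corepressors, and MGA joins MAX in a Polycomb-type repressor complex. MLX pairs with MLXIP, a sensor of glucose metabolites, and also with some MXD proteins. In colorectal cancer cells, MYC is a well-known target of Wnt/β-catenin signalling. The 10 genes of this network were chosen by symbol through the GENCODE v29 annotation out of 18660 gene symbols in the count table. Of the 101 transcripts annotated for these 10 genes, 93 were in the table.

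The libraries came from HCT116, an established colorectal cancer line, transfected with a lipid reagent and either an siRNA specific for the long non-coding RNA AC010789.1 (si-AC010789.1) or a negative control siRNA (siRNA-NC). Each group had 3 libraries, and the study asked which genes follow the silencing of AC010789.1. Both groups were therefore transfected cells of 1 line. The labels do not say whether replicates were separate cultures; the study's text speaks of biological repeats made from cells of differing generations and of marked variation inside a group. The p-values measure the spread between these libraries. Counts per library ran from 11277222 to 13443866, so that 3 counts equalled 0.223 to 0.266 CPM (counts scaled to a common library total), a limit that covers counting error only. AC010789.1 itself was not analysed here, and so the labels could not be set against the RNA that the siRNA targets. The study reports that it verified the knockdown in its sequenced samples.

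The label of the line was set against 11 markers of colorectal epithelium. KRT8 (444 to 850 CPM) and KRT18 (351 to 535 CPM), keratins of simple epithelia, were abundant, and EPCAM was at 3.10 to 5.59 CPM. CDH1, which encodes E-cadherin, was between 0.675 and 1.05 CPM, and CDH17 and LGR5 had at most 3 counts in any library. KRT19, CDX1, CDX2, VIL1 and CEACAM5 were not analysed here, and no level is given for them. The summed level of the 6 analysed markers was 985 to 1229 CPM with siRNA-NC and 802 to 1042 CPM with si-AC010789.1. Of 6 fibroblast markers, COL1A1 (37.8 to 48.0 CPM) and PDGFRB (16.4 to 19.0 CPM) were the highest of the 4 analysed here, whose summed level was 59.6 to 69.2 CPM with siRNA-NC against 63.8 to 68.6 CPM with si-AC010789.1. The 2 blood and 2 endothelial markers analysed here each summed, by list, to at most 2.51 CPM in any library. E-cadherin and EPCAM, which define epithelial cells, were thus low beside the keratins in both groups, and their part in the results was not tested. In bulk RNA, fewer cells that express a gene and less RNA per cell cannot be told apart.

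At the level of gene sums, no member passed the test. Of the 10 members, all of which passed the filter on low counts, 0 had an adjusted p under 0.05 in the quasi-likelihood test of edgeR, adjusted by Benjamini-Hochberg over 13757 genes, where 135 genes (0.981%) were called. DESeq2, given the same 13757 genes, called 520 of them against 135 in edgeR, and 1 of these was a member, MAX. At the criteria of the study, an unadjusted p under 0.05 with an absolute log2 fold change over 1, 0 members and 106 genes (0.771%) were called. An unadjusted p under 0.05 was reached by MAX alone, beside 17.2% of all genes tested. The groups did not overlap for MAX and MXD4, both lower with si-AC010789.1, where 12.9% of all genes were lower without overlap, and for 0 members in the other direction, where 12.2% of all genes were higher. The median log2 fold change was -0.12 over the 10 members and -0.00081 over all genes tested, with 7 members below 0 and 3 above.

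**Figure D1:**
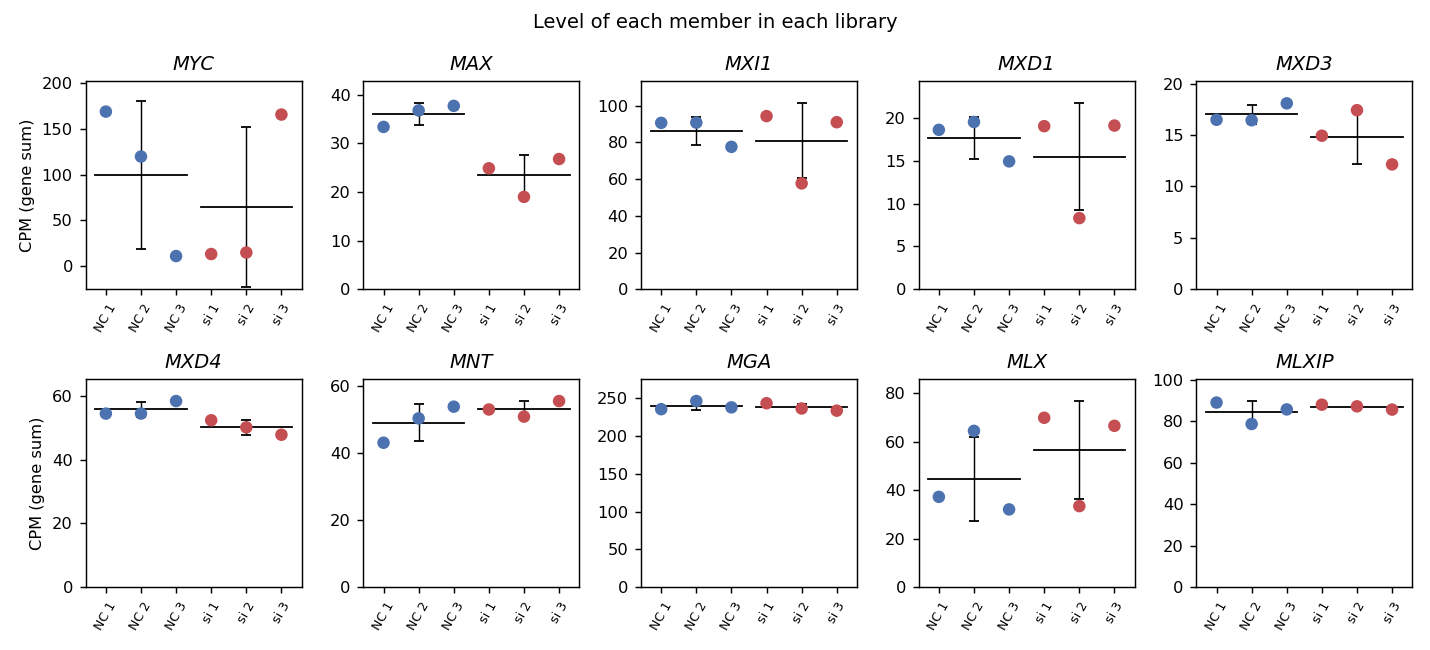
Level of each of the 10 members in CPM (vertical axes, gene sums) in the 3 siRNA-NC libraries (blue, NC 1 to 3) and the 3 si-AC010789.1 libraries (red, si 1 to 3), with the mean (line) and SD (bar) of each group. MYC sits between 10.4 and 169 CPM with high and low libraries in both groups, MAX is lower in all 3 si-AC010789.1 libraries, and MGA stays between 234 and 246 CPM.

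MYC, the activating arm of the network, varied far more between libraries of a group than between the groups. Its level in CPM was 169, 119.7 and 10.4 with siRNA-NC, for replicates 1 to 3, against 12.7, 14.3 and 166 with si-AC010789.1, in the order used for every gene that follows. Each group therefore held both high and low libraries, 2 high with siRNA-NC and 1 high with si-AC010789.1, with no library in between. The mean was 99.7 ± 81.2 CPM (SD, n = 3) with siRNA-NC and 64.3 ± 88.0 CPM (SD, n = 3) with si-AC010789.1. The log2 fold change was -0.63 (SE 1.24, adjusted p = 0.838 in edgeR), and it moved between -2.89 without si-AC010789.1 replicate 3 and -0.015 when other libraries were left out in turn. By other assays, the study reported lower MYC mRNA (qRT-PCR) and protein (western blot) after AC010789.1 knockdown in HCT116 and SW1116 cells.

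The highest library of MYC stood 16.2 times above the lowest, a larger ratio than in 98.8% of all genes tested. Among the 8013 genes within the mean CPM range of the members, 27 (0.337%) had a ratio over 10, and 73 (0.911%) had a ratio over 5. The counts behind these levels were 1908, 1588 and 139 with siRNA-NC and 145, 179 and 2048 with si-AC010789.1, so the low libraries were far above the level of 3 counts. MXD1 and MLX were the other members with a ratio over 2, at 2.35 and 2.18, while 8.25% of genes in the same range of levels had one.

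The transcripts that carried MYC also differed between the high libraries. ENST00000613283, a protein-coding transcript of 3 exons that spans little more than the coding sequence (1365 nt, 1362 of them coding), held 1667, 132 and 35 counts with siRNA-NC and 37, 77 and 1813 counts with si-AC010789.1. It made up 87.4% of MYC in siRNA-NC replicate 1 and 88.5% in si-AC010789.1 replicate 3. ENST00000621592, with the same coding length in a transcript of 2366 nt, held 14, 916 and 17 counts with siRNA-NC and 12, 13 and 16 counts with si-AC010789.1. It made up 57.7% of MYC in siRNA-NC replicate 2, the only library in which it was high. None of the 6 tested transcripts of MYC was called, and how reads shared by transcripts were divided is not given in the sources used here. When counts were scaled by transcript length (TPM), MYC ranged from 22.3 to 245.

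Per length, the 10 members covered a wide range of levels. MYC had the highest mean over the 6 libraries, 112 TPM, followed by MXI1 (85.3 TPM) and MLX (61.2 TPM), and the ranges of these 3 genes overlapped. MGA followed at 51.1 TPM, and its lowest library (48.7 TPM) was above the highest of MAX (48.4 TPM). MAX (38.8 TPM), MXD4 (35.1 TPM), MLXIP (31.7 TPM), MNT (31.3 TPM) and MXD3 (23.6 TPM) overlapped in range from one to the next. MXD1, at 6.73 TPM, lay below every library of MXD3. The order of MYC against the rest changed with the library, since MYC exceeded MXI1 in 2 of 6 libraries.

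MAX, the common partner of MYC, of the MXD proteins and of MNT and MGA, showed the most regular difference between the groups. Its level was 33.4, 36.8 and 37.7 CPM with siRNA-NC and 24.9, 19.0 and 26.8 CPM with si-AC010789.1. All 3 si-AC010789.1 libraries were below all 3 siRNA-NC libraries, with means of 23.6 ± 4.06 and 36.0 ± 2.28 CPM (SD, 3 libraries each). The log2 fold change was -0.61 (SE 0.139), with an unadjusted p of 0.0038 and an adjusted p of 0.108 in edgeR, so that MAX was not called. DESeq2 gave the same size of change (-0.61) with an adjusted p of 0.0113, past the threshold in a test that called 520 genes. The exact two-sided permutation test gave p = 0.1, the smallest value that 3 against 3 libraries allow. With each library left out in turn the log2 fold change stayed between -0.72 and -0.47, and the adjusted p in edgeR stayed above the threshold.

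The gene lies at chr14:65006174-65102695 on the minus strand of GRCh38, and its protein-coding transcripts differ in a short exon of 27 nt near the start of the coding sequence. This exon gives the long and the short form of the MAX protein, which differ just before the DNA-binding basic region. The sequence from the start codon is shown for both forms, over chr14:65093786-65102339 across the splice junctions, with the short exon in capitals.
MAX with the short exon, ENST00000358664: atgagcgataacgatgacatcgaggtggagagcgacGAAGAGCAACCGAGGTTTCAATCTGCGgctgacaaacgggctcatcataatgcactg
MAX without the short exon, ENST00000358402: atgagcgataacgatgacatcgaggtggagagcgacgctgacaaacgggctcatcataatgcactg

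Transcripts with this exon made up 52.3%, 85.9% and 75.5% of MAX counts with siRNA-NC and 57.9%, 82.8% and 73.7% with si-AC010789.1. The mean shares were 71.2% ± 17.2 and 71.5% ± 12.6 (SD, 3 libraries each), and the groups overlapped (exact permutation test, p = 1). The long form ENST00000358664 held 155, 352 and 302 counts with siRNA-NC against 81, 75 and 194 with si-AC010789.1. The short form ENST00000358402 held 166, 53 and 111 counts against 107, 12 and 80, so both forms had a lower mean with si-AC010789.1 with overlapping groups. ENST00000284165, a shorter coding form (402 nt against 480 nt for the long form), took 4.24%, 10.0% and 10.3% of the counts with siRNA-NC and 16.8%, 14.7% and 11.2% with si-AC010789.1, with no overlap between groups. ENST00000394606, annotated as a target of nonsense-mediated decay, had 0 counts in all siRNA-NC libraries and 13, 34 and 0 counts with si-AC010789.1. An antisense gene, AL139022.1, which shares 4.15% of the exon bases of MAX, was not analysed here.

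**Figure D2:**
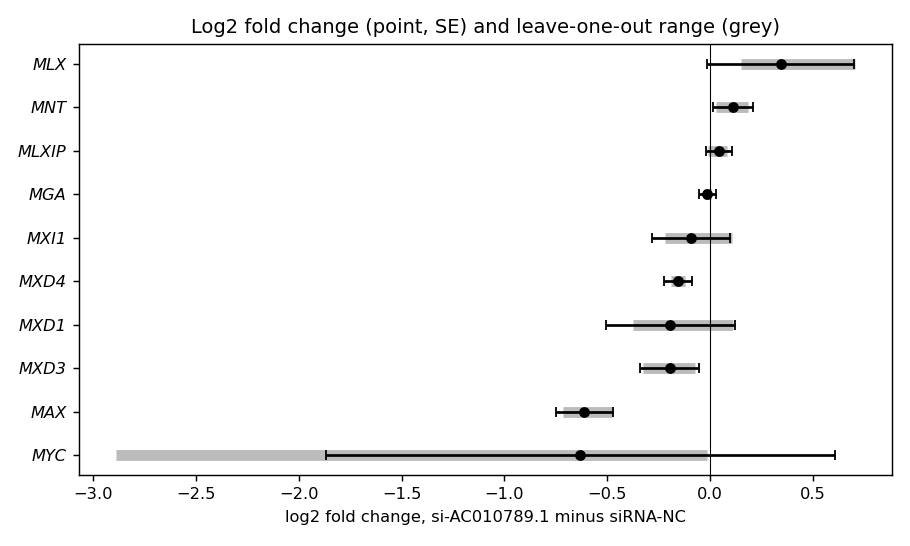
Log2 fold change of each member, si-AC010789.1 minus siRNA-NC (horizontal axis), as the edgeR estimate (point) with its SE (bar) and the range when each of the 6 libraries was left out in turn (grey band). MAX (-0.61) keeps its side of 0 throughout its grey band, MYC spans -2.89 to -0.015, and MGA lies at -0.013 with an SE of 0.0409.

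The MXD proteins and MNT, the repressors that compete with MYC for MAX, were measured at 15.9 CPM or more on average, and none was called. MXI1 was at 90.7, 90.8 and 77.6 CPM with siRNA-NC and at 94.3, 57.7 and 91.0 CPM with si-AC010789.1, with a log2 fold change of -0.092 (SE 0.189, adjusted p = 0.845 in edgeR). MXD1, known to rise as many cell types differentiate, was at 18.6, 19.5 and 14.9 CPM with siRNA-NC and at 19.0, 8.31 and 19.1 CPM with si-AC010789.1, with a log2 fold change of -0.19 (SE 0.314, adjusted p = 0.804). In both genes si-AC010789.1 replicate 2 was the lowest library and the groups overlapped. Without that library the log2 fold change turned to 0.105 for MXI1 and to 0.112 for MXD1.

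MXD3, known for its expression in S phase, was at 16.5, 16.4 and 18.1 CPM with siRNA-NC and at 14.9, 17.4 and 12.1 CPM with si-AC010789.1, with a log2 fold change of -0.20 (SE 0.144, adjusted p = 0.540). MXD4 was at 54.5, 54.5 and 58.4 CPM with siRNA-NC and at 52.4, 50.2 and 47.9 CPM with si-AC010789.1. Every si-AC010789.1 library of MXD4 lay below every siRNA-NC library, by a small margin, with a log2 fold change of -0.15 (SE 0.068, unadjusted p = 0.0593, adjusted p = 0.313 in edgeR). MNT, the repressor found in both resting and dividing cells, was at 43.2, 50.4 and 53.9 CPM with siRNA-NC and at 53.1, 51.0 and 55.6 CPM with si-AC010789.1, with a log2 fold change of 0.11 (SE 0.0969, adjusted p = 0.607).

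Within MXI1 (chr10:110207605-110287365, plus strand) the counts moved between transcripts that encode different forms of the protein. ENST00000239007 starts at an outer start codon, and ENST00000361248 and ENST00000369612 start at an inner one in the same reading frame, 108 bases or 36 codons further on. The stretch between both start codons encodes the region that binds the SIN3 corepressor, which the shorter form lacks. It is shown for ENST00000239007 over chr10:110226211-110228256 across its splice junction, with both start codons in capitals.
MXI1 start, ENST00000239007: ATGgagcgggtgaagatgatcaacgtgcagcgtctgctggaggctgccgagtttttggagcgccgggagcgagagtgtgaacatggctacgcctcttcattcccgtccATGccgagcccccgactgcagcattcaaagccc

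ENST00000361248 also skips an inner exon of 30 nt, at chr10:110244828-110244857, which encodes part of the DNA-binding basic region. Both versions of this stretch are shown, over chr10:110228292-110279209 across the splice junctions, with the skipped exon in capitals.
MXI1 with the inner exon, ENST00000239007: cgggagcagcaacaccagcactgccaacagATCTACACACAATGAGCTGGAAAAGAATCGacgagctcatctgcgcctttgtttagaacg
MXI1 without the inner exon, ENST00000361248: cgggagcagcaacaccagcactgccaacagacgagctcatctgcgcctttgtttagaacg

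ENST00000239007 held 897, 716 and 579 counts with siRNA-NC and 664, 401 and 60 counts with si-AC010789.1. It thus made up 5.34% of MXI1 in si-AC010789.1 replicate 3, against 55.5% to 87.7% in the other 5 libraries. ENST00000361248 held 0, 0 and 352 counts with siRNA-NC and 325, 0 and 614 counts with si-AC010789.1, so 3 libraries had it and 3 had none. ENST00000369612 held 0, 348 and 0 counts with siRNA-NC and 0, 0 and 316 counts with si-AC010789.1. Transcripts with the 30-nt exon took 94.1%, 93.6% and 64.3% of MXI1 with siRNA-NC and 67.5%, 88.5% and 42.1% with si-AC010789.1 (84.0% ± 17.1 against 66.0% ± 23.2, SD, n = 3 each), and the groups overlapped (exact permutation test, p = 0.3). The sum of MXI1 stayed within 1.64 times over the same libraries. ENST00000332674, which starts at another first exon, held 218 counts in si-AC010789.1 replicate 2 and 56 to 81 counts in the others.

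MXD3 (chr5:177301461-177312757, minus strand) gave the clearest contrast between transcripts, around an exon of the same length. Its 30-nt exon encodes the matching part of the basic region and shares 19 of 30 bases with that of MXI1. In ENST00000439742, a protein-coding transcript, it is joined to its neighbours, while ENST00000503782, annotated as a retained intron, keeps the introns on both sides. The exon is shown in capitals in both, over chr5:177310511-177311408 across the splice junctions and over chr5:177310638-177310727 without a junction.
MXD3 introns removed, ENST00000439742: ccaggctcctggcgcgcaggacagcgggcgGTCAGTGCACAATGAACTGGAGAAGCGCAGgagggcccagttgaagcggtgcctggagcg
MXD3 introns kept, ENST00000503782: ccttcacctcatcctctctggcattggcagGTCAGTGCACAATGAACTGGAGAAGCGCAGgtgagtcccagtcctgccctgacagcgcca

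The intron-keeping transcript ENST00000503782 held 62, 51 and 118 counts with siRNA-NC and 2, 8 and 13 counts with si-AC010789.1. Its groups did not overlap, and its log2 fold change was -3.27 (SE 0.721, unadjusted p = 0.00477, adjusted p = 0.490 in edgeR over 44319 transcripts). DESeq2 gave -3.29 with an adjusted p of 0.00106, the one call it made among member transcripts. How many of all transcripts DESeq2 called is not given here, so this call has no share to be set beside. The protein-coding ENST00000439742 held 12, 28 and 20 counts with siRNA-NC and 103, 42 and 68 counts with si-AC010789.1, again with no overlap, with a log2 fold change of 1.91 (SE 0.505, unadjusted p = 0.0105, adjusted p = 0.638 in edgeR). As shares of MXD3, the first was 35.2% ± 12.9 with siRNA-NC and 4.50% ± 3.82 with si-AC010789.1, and the second was 9.20% ± 3.29 and 41.6% ± 20.7 (SD, 3 libraries each). ENST00000513063, a protein-coding transcript of the same coding length (618 nt), held 1, 96 and 1 counts with siRNA-NC. With si-AC010789.1 it held 1, 84 and 1 counts, so it was high in replicate 2 of both groups.

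A further transcript that keeps the same introns, ENST00000503473, held 45, 0 and 0 counts with siRNA-NC and 0, 26 and 0 with si-AC010789.1. Together these 2 transcripts took 57.5%, 23.4% and 49.0% of MXD3 with siRNA-NC and 1.17%, 15.6% and 8.67% with si-AC010789.1, groups that did not overlap (exact permutation test, p = 0.1, the smallest possible). With only protein-coding transcripts summed, MXD3 was at 6.82, 12.4 and 9.08 CPM with siRNA-NC and at 14.8, 13.9 and 10.9 CPM with si-AC010789.1, and the groups overlapped. The log2 fold change was then 0.49 (SE 0.249, adjusted p = 0.435 in edgeR), so that its direction depended on whether intron-keeping transcripts were counted. MXD3 shares 18.0% of its exon bases with RAB24 on the same strand and 22.5% with PRELID1 on the other strand. RAB24 was at 141, 174 and 189 counts with siRNA-NC and at 133, 169 and 169 counts with si-AC010789.1, and PRELID1 at 402, 476 and 467 against 398, 400 and 416 counts. Counts of MXD3 are uncertain to that extent, since the strand setting of the counting is not given in the sources used here.

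Over all members, 46 of the 93 transcripts passed the filter and 0 were called, beside 0.0135% of all 44319 transcripts tested. Counts were simulated with the means of these data and the spread fitted at each level, not each transcript's own spread. They were put through the same test. This test recovered 0 of 67 transcripts at an absolute log2 fold change of 1, 4 of 67 at 2 and 64 of 66 at 6. Recovery of transcripts that vary more than the fitted spread was not tested. The absence of calls among member transcripts therefore does not show that none changed. An unadjusted p under 0.05 was reached by 3 of the 46, beside 5.73% of all transcripts. The groups did not overlap for 5 of the 46 (10.9%), beside 14% of all transcripts tested, and the difference between these shares was not tested. Of 26 transcripts named for their share, 6 had shares that did not overlap between the groups, beside 10.5% of transcripts picked by the same rule in all tested genes with 2 or more transcripts, and the lowest adjusted p of the exact permutation test over shares was 0.433.

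**Figure D3:**
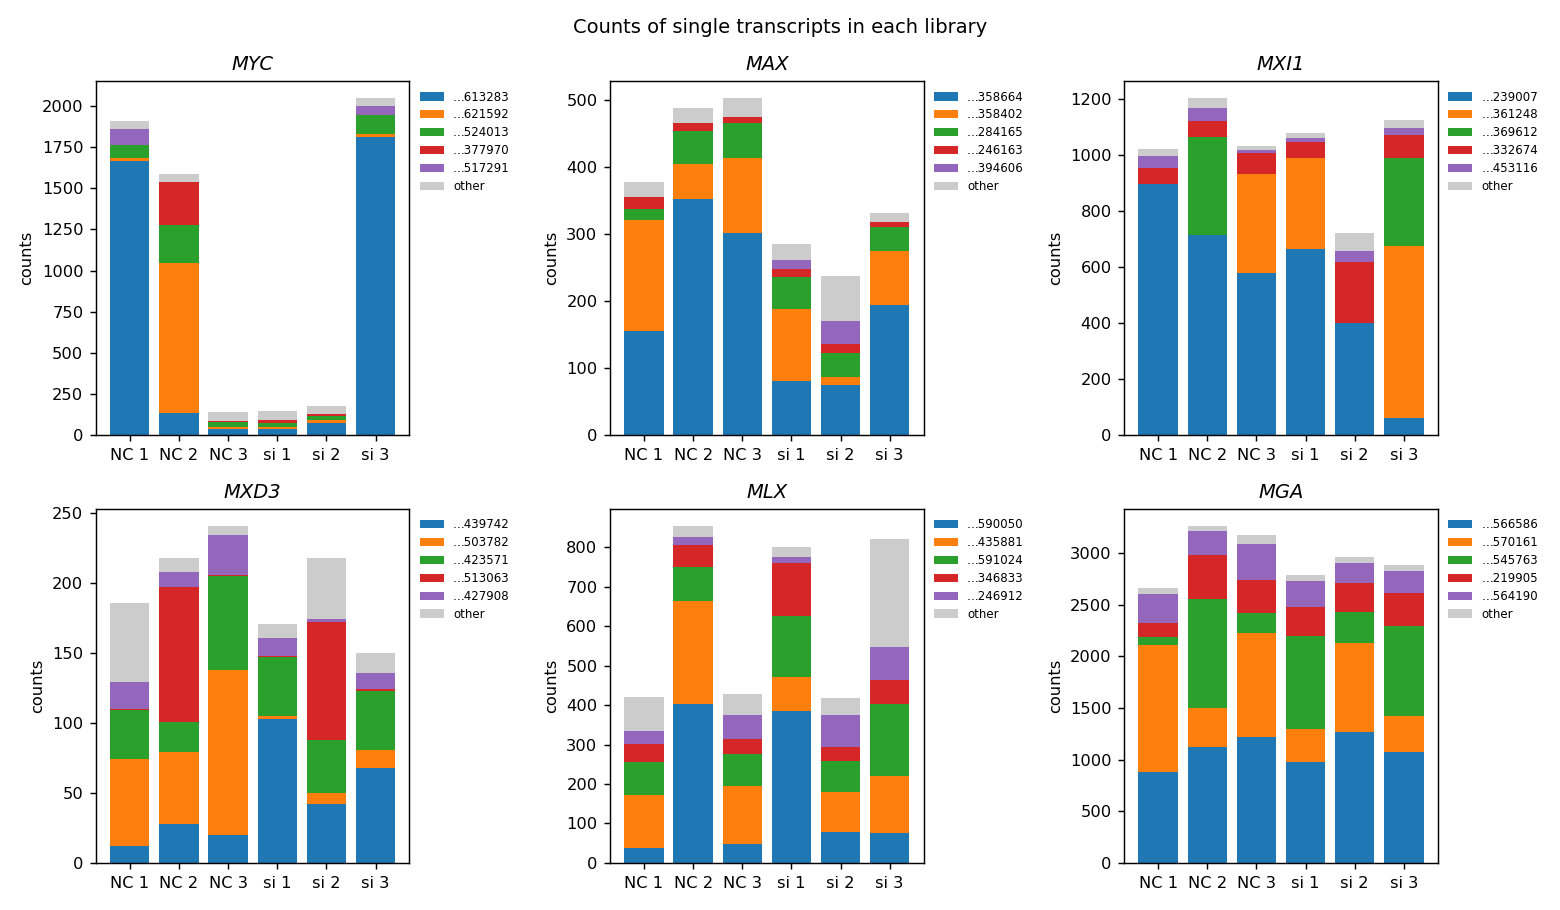
Counts of single transcripts (vertical axes) in the 3 siRNA-NC libraries (NC 1 to 3) and the 3 si-AC010789.1 libraries (si 1 to 3) for 6 members; the 5 most abundant transcripts are coloured by the last digits of their identifier and all others are grey. The composition of MYC, MXI1, MLX, MGA and MXD3 differs between libraries of 1 group. Within MXD3, ENST00000503782 (orange) is at 51 to 118 counts with siRNA-NC and at 2 to 13 with si-AC010789.1.

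MNT (chr17:2384060-2401118, minus strand) and MXD4 (chr4:2247432-2262294, minus strand) had a steadier composition. The main transcript of MNT, ENST00000174618, took 80.9%, 80.9% and 75.8% of the counts with siRNA-NC and 73.8%, 70.8% and 74.4% with si-AC010789.1. ENST00000575402, annotated as a retained intron, took 13.8%, 13.8% and 18.5% with siRNA-NC and 21.1%, 22.1% and 21.1% with si-AC010789.1. Neither pair of groups overlapped, and with protein-coding transcripts only the log2 fold change of MNT was 0.0051 (SE 0.0976) in place of 0.11. For MXD4, transcripts annotated for nonsense-mediated decay took 4.39%, 3.18% and 4.75% with siRNA-NC and 2.33%, 1.75% and 3.05% with si-AC010789.1, without overlap. In MXD1 (chr2:69897688-69942945, plus strand) a single transcript, ENST00000264444, held 96.8% of the counts.

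MGA, the large scaffold of the PRC1.6 repressor complex and itself a partner of MAX, was the steadiest member. It was at 236, 246 and 238 CPM with siRNA-NC and at 243, 236 and 234 CPM with si-AC010789.1, with a log2 fold change of -0.013 (SE 0.0409, adjusted p = 0.909 in edgeR). The highest library was 1.05 times the lowest, and only 0.472% of all genes tested had a smaller ratio. The transcripts of MGA (chr15:41621224-41773081, plus strand) did not share this steadiness. ENST00000570161, whose coding sequence of 9195 nt includes a long internal exon, held 1230, 384 and 1008 counts with siRNA-NC and 325, 864 and 346 counts with si-AC010789.1. ENST00000545763, with 8568 coding nt, held 74, 1049 and 190 counts with siRNA-NC and 901, 303 and 875 counts with si-AC010789.1. Libraries high in one were low in the other, in both groups. The most abundant transcript, ENST00000566586, stayed at 33.1% to 42.7% of the sum.

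MLX, the partner of MLXIP, again had 2 levels that crossed the groups. It was at 37.2, 64.5 and 32.0 CPM with siRNA-NC and at 69.9, 33.4 and 66.6 CPM with si-AC010789.1, with a log2 fold change of 0.34 (SE 0.360, adjusted p = 0.682 in edgeR). The high libraries of MLX were siRNA-NC replicate 2 and si-AC010789.1 replicates 1 and 3, which was not the set of libraries high in MYC. ENST00000590050, annotated as a retained intron, held 37, 404 and 47 counts with siRNA-NC and 386, 78 and 75 counts with si-AC010789.1. ENST00000588320, also a retained intron, held 246 counts in si-AC010789.1 replicate 3 and 1 to 14 in the others. With protein-coding transcripts only, MLX was at 26.3, 31.8 and 24.5 CPM with siRNA-NC and at 34.0, 23.7 and 38.2 CPM with si-AC010789.1, and the highest library was 1.61 times the lowest in place of 2.18 times.

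ENST00000435881, a protein-coding transcript of MLX, took 32.1%, 30.5% and 34.7% of the counts with siRNA-NC and 10.8%, 24.2% and 17.6% with si-AC010789.1, without overlap. MLX (chr17:42567068-42573239, plus strand) shares 18.1% of its exon bases with PSMC3IP on the other strand, whose counts were 662, 748 and 708 with siRNA-NC and 675, 665 and 485 with si-AC010789.1. MLXIP (chr12:122078722-122147347, plus strand) was at 89.1, 78.7 and 85.8 CPM with siRNA-NC and at 88.0, 87.2 and 85.7 CPM with si-AC010789.1, with a log2 fold change of 0.042 (SE 0.0630, adjusted p = 0.786 in edgeR). Its main transcript, ENST00000319080, held 84.6% of the counts.

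MYC and MAX bind the E-box, CACGTG, which reads the same on both strands. In RefSeq promoter windows of 300 bases (GRCh38.p14, from 250 bases before to 50 after a gene start), this sequence stood in 3 of the 14 windows of 9 members, those of MXD4, MNT and MLX. It stood in 7.26% of all 35116 windows. These matches are a description of the letters only.

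A set of 197 genes in 11 lists gave the surroundings of the network: its partners, its relatives and its textbook targets. Of these, 184 passed the filter on low counts, and 3 (1.63%) were called, beside 0.981% of all genes. Their median log2 fold change was 0.054, and an unadjusted p under 0.05 was reached by 43 of them (23.4%), beside 17.2% of all genes. The 3 called genes were NOLC1, SLC2A1 and CDKN1A, all known MYC targets.

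NOLC1, a nucleolar chaperone of ribosome biogenesis, was at 276, 285 and 293 CPM with siRNA-NC and rose to 342, 341 and 361 CPM with si-AC010789.1, with a log2 fold change of 0.29 (SE 0.0452, adjusted p = 0.0499 in edgeR). SLC2A1, the glucose transporter GLUT1, was at 125, 144 and 128 CPM with siRNA-NC and rose to 178, 181 and 183 CPM with si-AC010789.1, with a log2 fold change of 0.45 (SE 0.0630, adjusted p = 0.0406). CDKN1A, the cell cycle inhibitor p21 that MYC represses, was at 133, 146 and 155 CPM with siRNA-NC and fell to 102, 107 and 101 CPM with si-AC010789.1, with a log2 fold change of -0.48 (SE 0.0676, adjusted p = 0.0402). None of the 3 genes had overlapping groups, and DESeq2 also called all 3. The calls were lost without the filter (adjusted p = 0.0709 for NOLC1, 0.0612 for SLC2A1 and 0.0555 for CDKN1A). They were also lost when any library was left out, with adjusted p from 0.108 to 0.151 for NOLC1 and from 0.0635 to 0.141 for CDKN1A, and from 0.110 to 0.141 for SLC2A1, except without siRNA-NC replicate 2, where SLC2A1 stayed past the threshold (adjusted p = 0.0429). With protein-coding transcripts only, the adjusted p was 0.0799, 0.0685 and 0.0716 for NOLC1, SLC2A1 and CDKN1A.

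Among the activated targets in ribosome biogenesis, 21 of 27 had a log2 fold change above 0 (median 0.063), and 1, NOLC1, was called. PA2G4, a regulator of ribosome assembly, was at 343 ± 34.3 CPM with siRNA-NC and 409 ± 9.55 CPM with si-AC010789.1 (SD, 3 libraries each; adjusted p = 0.166), while NPM1 (1038 ± 76.0 against 1058 ± 21.9 CPM) and NCL (715 ± 40.1 against 695 ± 36.9 CPM), the abundant nucleolar proteins, had log2 fold changes of 0.028 and -0.042. Among metabolic targets, 27 of 34 were above 0 (median 0.084), 1, SLC2A1, was called, and 12 were higher without overlap against 0 lower, beside 12.2% and 12.9% of all genes tested. The mitochondrial chaperonin HSPE1 was at 42.5 ± 1.50 CPM with siRNA-NC and 54.6 ± 1.57 CPM with si-AC010789.1 (adjusted p = 0.0656). The glycolytic enzymes ENO1 (2321 ± 137 against 2420 ± 63.5 CPM) and LDHA (1732 ± 377 against 1907 ± 101 CPM) were the most abundant of this list and overlapped between groups.

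Of the 23 tested targets in the cell cycle and translation, 15 were above 0 (median 0.037) and 0 were called. Without overlap, 6 were higher and 4 lower (12.2% and 12.9% of all genes). At an unadjusted p under 0.05 in edgeR, 3 were higher and 3 lower. CDC25A, a phosphatase that drives entry into S phase, was at 39.2, 37.8 and 38.1 CPM with siRNA-NC and at 77.4, 55.7 and 56.9 CPM with si-AC010789.1 (log2 fold change 0.72, adjusted p = 0.0746 in edgeR). TERT, the catalytic subunit of telomerase, was at 0.709, 0.980 and 1.28 CPM and at 2.45, 2.48 and 3.24 CPM, a log2 fold change of 1.44 (adjusted p = 0.0836). Neither gene had overlapping groups. PTMA, 1 of the 2 most abundant genes of this list, was lower on average with si-AC010789.1, with overlapping groups. It was at 529 ± 152 CPM with siRNA-NC and 366 ± 132.5 CPM with si-AC010789.1 (adjusted p = 0.450 in edgeR). Of the 18 tested genes that MYC represses, 13 were below 0 (median -0.14), 5 were lower without overlap against 1 higher (12.9% and 12.2% of all genes), and CDKN1A was called. FTH1, the ferritin heavy chain, was at 1356 ± 80.8 CPM with siRNA-NC and 1117 ± 15.8 CPM with si-AC010789.1 (adjusted p = 0.0738), and ITGB1, the integrin beta-1 chain, at 1185 ± 59.3 and 1052 ± 7.70 CPM (adjusted p = 0.148). NPM1, LDHA, HSPE1 and FTH1 have processed copies elsewhere in the genome, which leaves their counts less certain.

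**Figure D4:**
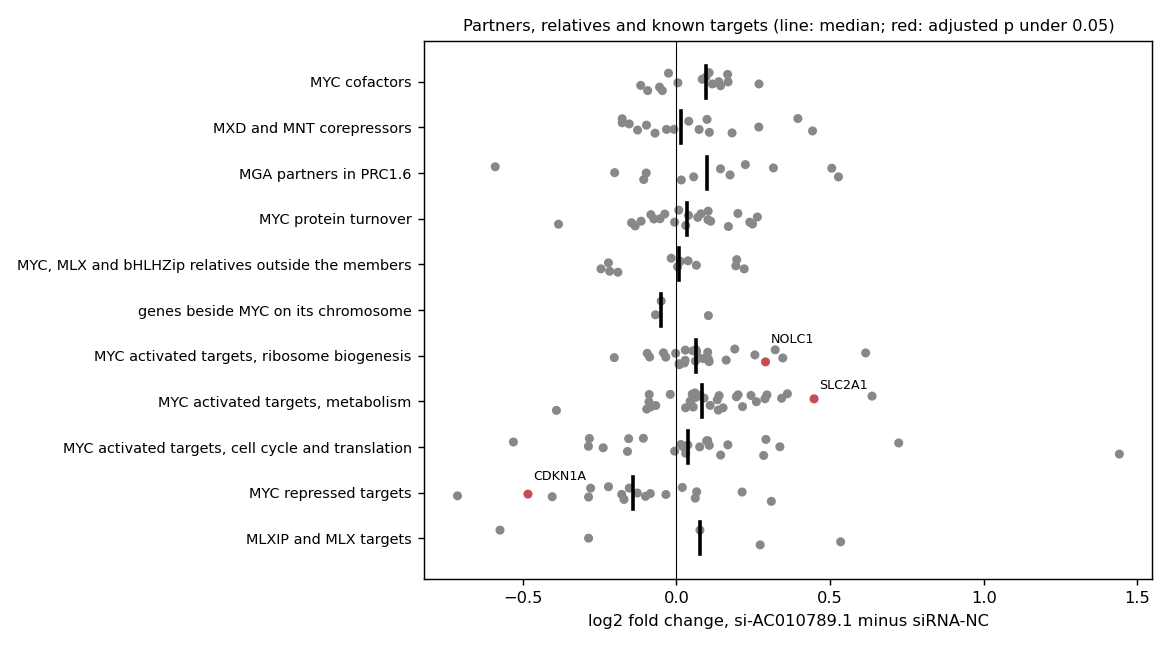
Log2 fold change of each tested gene, si-AC010789.1 minus siRNA-NC (horizontal axis), in 11 lists of partners, relatives and known targets of the network; points are genes, the black line is the list's median, and red marks an adjusted p under 0.05. The medians run from -0.14 for genes repressed by MYC to 0.0996 for the MGA partners, and the red genes are NOLC1, SLC2A1 and CDKN1A.

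Among the partners of the network, 0 genes were called. Of 15 MYC cofactors, 10 were above 0 (median 0.096), with the acetyltransferase KAT5 at 55.5 ± 2.29 CPM with siRNA-NC and 66.9 ± 6.93 CPM with si-AC010789.1 (adjusted p = 0.216) and the chromatin remodelling subunit SMARCB1 at 50.9 ± 0.759 and 57.2 ± 1.69 CPM (adjusted p = 0.231). Of 16 corepressors used by the MXD proteins and MNT, 8 were above 0 (median 0.016). The histone-binding protein RBBP7 was at 159, 159 and 142 CPM with siRNA-NC and at 239.6, 221 and 164 CPM with si-AC010789.1 (adjusted p = 0.192), and SIN3A, the scaffold of the corepressor complex, at 194 ± 10.0 and 184 ± 3.84 CPM (adjusted p = 0.545). Of 12 MGA partners in PRC1.6, 8 were above 0 (median 0.0996).

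Of 22 genes in the turnover of MYC protein, 13 were above 0 (median 0.035) and 0 were called. AURKA, a mitotic kinase that also stabilizes MYC proteins, was at 119.6 ± 5.09 CPM with siRNA-NC and 144 ± 2.70 CPM with si-AC010789.1 (adjusted p = 0.0783), and the ubiquitin ligase HUWE1 at 772 ± 21.1 and 703 ± 25.1 CPM (adjusted p = 0.209). Of 12 tested relatives of the members, 7 were above 0 (median 0.0080), and MYCN, the paralog of MYC, had 50 counts over all 6 libraries and did not pass the filter. Of the 5 targets of MLXIP and MLX, 3 were above 0 (median 0.076) and 0 were called. TXNIP, their best-known target, was at 37.8, 44.3 and 38.1 CPM with siRNA-NC and at 28.7, 39.2 and 30.6 CPM with si-AC010789.1 (adjusted p = 0.354). Of the 3 tested genes that lie beside MYC, CASC19 ranged from 126 to 149.8 CPM and FAM84B from 20.1 to 23.0 CPM, with no library set apart in the way MYC was.

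The summed level of each list was set beside MYC in the same libraries. Over the 11 lists, the highest library exceeded the lowest by 1.05 to 1.19 times, while MYC differed by 16.2 times. Activated targets in ribosome biogenesis summed to 4622, 4767 and 4449 CPM with siRNA-NC and to 4885, 4798 and 4849 CPM with si-AC010789.1. Genes repressed by MYC summed to 4174, 4181 and 4147 CPM with siRNA-NC and to 3702, 3770.2 and 3723 CPM with si-AC010789.1. In siRNA-NC replicate 3, with the lowest MYC of all, the activated targets in ribosome biogenesis and in metabolism were also lowest, while si-AC010789.1 replicates 1 and 2 had low MYC with both sums above those of every siRNA-NC library. The activated targets in the cell cycle and translation differed from this. They summed to 3892, 3541 and 3471 CPM with siRNA-NC and to 3715, 3427 and 3387.5 CPM with si-AC010789.1. Their groups overlapped, and their lowest library was si-AC010789.1 replicate 3, which was high in MYC. These sums are carried by a few abundant genes and were given no test.

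**Figure D5:**
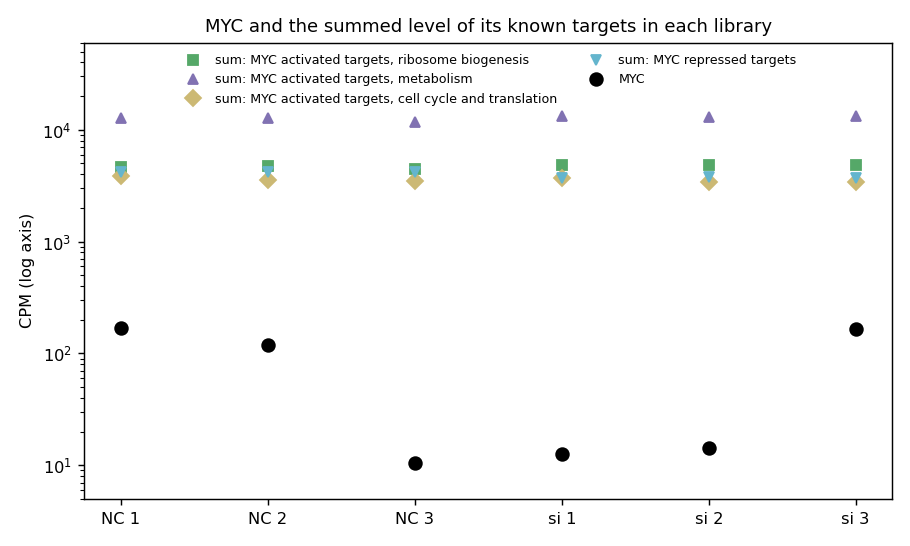
Level of MYC and summed level of 4 lists of its known targets, in CPM on a log axis (vertical), in the 3 siRNA-NC libraries (NC 1 to 3) and the 3 si-AC010789.1 libraries (si 1 to 3). MYC (black) lies between 10.4 and 169 CPM, while each sum stays within 1.15 times of its lowest library.

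The genes most like MYC over the 6 libraries, by Pearson correlation of log2(CPM + 1) with a pseudocount of 1, were found by rank among 13756 other genes and serve as a description. SNX2, a sorting nexin (r = 0.993), had levels of 95.2, 95.3 and 83.9 CPM with siRNA-NC and 84.9, 84.8 and 94.8 CPM with si-AC010789.1, a far smaller range than MYC. TBXA2R, the thromboxane receptor (r = 0.992), was at 16.7, 17.6 and 5.18 CPM and at 5.68, 5.43 and 19.7 CPM. ISCA2, AC126755.2 and AL928654.3 followed, and AL928654.3 was at 55.8 and 51.3 CPM in siRNA-NC replicates 1 and 2, at 27.8 CPM in si-AC010789.1 replicate 3, and under 1 CPM in the other 3 libraries.

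The genes most opposed to MYC were AL157935.2 (r = -0.992), QSER1, ZNF593, EIF1 and TOB1-AS1. EIF1, a translation initiation factor, was at 32.3, 34.9 and 80.7 CPM with siRNA-NC and at 87.9, 101.8 and 36.0 CPM with si-AC010789.1. The libraries high in MYC were the ones low in EIF1 and high in TBXA2R, in both groups, as the choice of these genes by rank implies. Single transcripts ranked in the same way showed this division by their selection. One of them, ENST00000423312 of KIF26A, held 172, 155 and 0 counts with siRNA-NC and 0, 0 and 157 counts with si-AC010789.1. Of the 13756 genes compared, 62 had r above 0.9 with MYC and 56 had r under -0.9. How many would do so by chance was not tested. With 6 libraries these rankings are loose, and of the 10 genes named between 0 and 4 stayed among the nearest when 1 library was left out.

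For MXD1 the most similar gene sums were ARL15 (r = 0.997), MXI1 (r = 0.994) and ODR4 (r = 0.989), all lowest in si-AC010789.1 replicate 2. Its most opposed genes were AL136454.1, PLRG1 and DYRK1A, all highest in that library. For MLX they were PKN2 (r = 0.998), CBX2 and MICU2, with PKN2 at 137, 186 and 123 CPM with siRNA-NC and 191, 127 and 183 CPM with si-AC010789.1. MRPL34, a mitochondrial ribosomal protein among the genes most opposed to MLX, was at 40.0, 8.52 and 44.9 CPM with siRNA-NC and at 7.86, 35.2 and 9.07 CPM with si-AC010789.1.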

How the data were processed

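TruSeq paired-end libraries of 6 samples were sequenced on a NovaSeq. The authors deposited whole-number counts per Ensembl transcript and library, without normalization. The submitters' processing notes name CASAVA 1.8, TopHat2 2.0.6 and the builds GRCh38 and mm10; the counting program and its treatment of shared reads are not given in the sources used here. Of 98886 transcripts, 98803 were matched to GENCODE 29 (GRCh38), with 99.907% to 99.941% of counts, and summed per gene symbol.

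Gene sums and transcripts were tested with edgeR 4.0.16 in R 4.3.3 (TMM factors for genes from 0.9934 to 1.0073, low counts removed by filterByExpr at its minimum of 10 and total of 15, quasi-likelihood test, Benjamini-Hochberg adjustment over all features, threshold 0.05). CPM used TMM-scaled totals, and 3 counts were taken as the floor. Alternatives were DESeq2 1.42.0, its size factors in edgeR, no filter, a mean of at least 1 CPM, the replicate number as a block, leaving out each library, protein-coding transcripts only, pseudocounts of 0.1 and 5 in place of 1, CPM on raw totals and TPM. Cuffdiff, which the study used, needs alignments and was not run. The programs were tested on simulated data. Figures and sequences were made in Python 3.11.15 from GENCODE transcripts and RefSeq promoter windows.

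All 10 members are named. Named transcripts hold at least 10% of a member's counts or are its 2 most abundant; from each list the called genes, the 2 with the smallest p and the 2 most abundant could be named; other transcripts, overlapping genes and MYCN were chosen after their values were seen. For likeness, 5 and 5 genes were ranked for MYC and 3 and 3 for MXD1 and MLX, with 5 and 5 transcripts. The lists were written from general knowledge. The members and lists were chosen with earlier results of these data known; groups of transcripts by exon and summed levels of lists were added after the data were seen.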

Additional observations from a re-analysis of the deposited data

How the results depend on the processing

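Across the alternatives, 491 values kept their direction and their side of the threshold or moved little, 63 moved further and 25 changed sign. No member was called under any alternative but DESeq2, which called 1 member (MAX) and 1 member transcript (ENST00000503782). The number of all genes called, 135, was 520 with DESeq2, 77 without the filter, 56 with protein-coding transcripts only and 12 to 37 with each library left out. At the study's criteria the count of 106 genes was 327 without the filter, 161 without si-AC010789.1 replicate 1, 169 without si-AC010789.1 replicate 2 and 148 to 159 without any other library. The 3 listed genes called became 11 with DESeq2, 0 without the filter and 0 to 1 with each library left out. With the replicate block 0 genes and 0 listed genes were called. The labels do not say whether replicate numbers pair the libraries. Deviations of same-numbered libraries correlated at 0.111, 0.0111 and 0.0163, and not every library correlated best with its own number. So few libraries a group cannot decide whether they were paired. MXD3 turned to 0.488 with protein-coding transcripts only. With each library left out, the log2 fold change passed through 0 for MXI1 (-0.217 to 0.105), MXD1 (-0.375 to 0.112), MGA (-0.0314 to 0.00513) and MLXIP (-0.0083 to 0.0825), and for the transcripts ENST00000613283 of MYC (-3.51 to 3.02), ENST00000284165 of MAX (-0.21 to 0.36), ENST00000264444 of MXD1 (-0.392 to 0.113), ENST00000423571 of MXD3 (-0.28 to 0.495), ENST00000513372 of MXD4 (-0.0949 to 0.14), ENST00000174618 of MNT (-0.0898 to 0.0397), ENST00000590050 of MLX (-1.04 to 2.16) and ENST00000319080 of MLXIP (-0.0375 to 0.058). NOLC1 also lost its call with DESeq2's size factors in edgeR (adjusted p = 0.0511). The cause was not tested. With 3 libraries a group, single values cannot reach a permutation p below 0.1.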
